A study of Mus musculus with 6 samples.

Results

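The genes described here are 31 markers of brain macrophages, 5 of border macrophages (Mrc1, Cd163, Lyve1, Pf4 and Ms4a7), 4 of microglia (P2ry12, Tmem119, Gpr34 and Siglech) and 22 that mark both or other myeloid cells. Members were the probe sets whose only gene symbol in the platform annotation is one of these names, whatever their values, and all 31 genes were found, with 44 of the 45037 probe sets that are not controls. Expression had been measured in total RNA from choroid plexus epithelium of whole mouse brain, on 1 single-colour array per sample, for 3 wild type (WT) samples of the mouse strain B10.PL and 3 RAG-/- samples on the B10.PL background. RAG1 and RAG2 cut antigen receptor genes for joining, so animals without either protein form no mature T or B cells. Neither the disrupted gene nor the age of the mice is named in the labels. They do not say whether a sample came from 1 animal or a pool, so the spread behind each p-value may be technical. A code in the titles joins 1 sample of each genotype into a pair, and there were 3 pairs. What the code stands for is not stated. The descriptions state that the samples of pair 1 had been swapped, which turns the genotypes given by their titles around. Genotypes below are those of the descriptions unless the title is named.

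Macrophages at the borders of the brain live in the meninges, in the spaces around vessels and in the stroma and on the surface of the choroid plexus. They carry scavenger and endocytic receptors such as CD163 and the mannose receptor. Microglia live in the brain tissue itself and are known by the purinergic receptor P2RY12 and the membrane protein TMEM119. Both depend on the receptor CSF1R and share the fractalkine receptor CX3CR1, the complement protein C1q and the signalling adapter TYROBP. A preparation of choroid plexus can therefore hold border macrophages of its own and microglia from adhering brain tissue.

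Values are log2(intensity + 16) after quantile normalization, called log2 values here. They can be compared between arrays for 1 gene but not between genes, because probe sets differ in brightness for reasons other than RNA level. Of the 31 genes, 28 lay above the lowest 40% of probe sets by their mean over all arrays and were tested, and Itgam, Trem2 and Siglech did not. The tissue label held in part. Ttr, the thyroid hormone carrier of choroid plexus epithelium, was at 14.69 to 14.83 in every array, and all 12 epithelial markers measured passed that filter, but the synaptic gene Snap25 was at 11.38 to 14.05 and the myelin gene Mbp at 14.20 to 14.81, both bright in all 6 arrays. Rag1, which may or may not be the disrupted gene, was dim and gave no loss of signal to check the labels by. It was at 6.54, 6.92 and 6.31 in the arrays titled RAG, against 4.60, 4.16 and 4.35 in the others, 2.22 apart in the mean (two-sided exact permutation p = 0.1, as small as 3 against 3 allow). By description it differed by 0.93 and the groups overlapped (exact permutation p = 0.3, two-sided), because the 2 arrays of pair 1 lay with the other genotype. Rag2, the other candidate, was as dim, at 4.46 and 5.55 in pair 1, 4.67 and 4.87 in pair 2, and 7.14 and 5.99 in pair 3, WT first by description, and differed by 0.05 by description and -0.68 by title (exact permutation p = 1 and 0.6, two-sided). Which reading of pair 1 is right cannot be told from these genes, since where their probe sets lie relative to the disruption is not known here.

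The order of the arrays in the macrophage genes followed the pairs. For each of the 31 genes, at its brightest probe set, the mean of pair 1 was the highest of the 3 pair means. Over all genes past the filter, pair 1 lay above pair 2 in 53.2% and above pair 3 in 49%. Both arrays of pair 1 lay above the other 4 arrays in 17 of the 28 tested members, where 8.75% of 13537 genes did so. Both arrays of pair 2 lay below the other 4 in 14 of the 28, against 17% of genes. The median member ranged over 2.27 log2 units across the 6 arrays, and the median gene over 1.08. A limma F test between pairs, adjusted for genotype and added after the data had been seen, called 0 of 27023 probe sets at adjusted p under 0.05, members included (smallest member adjusted p = 0.0615, for Lyz2). At an unadjusted p under 0.05 it counted 20 of the 28 members, against 24.2% of probe sets. In bulk tissue, fewer macrophages and less RNA per macrophage cannot be told apart.

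**Figure D1:**
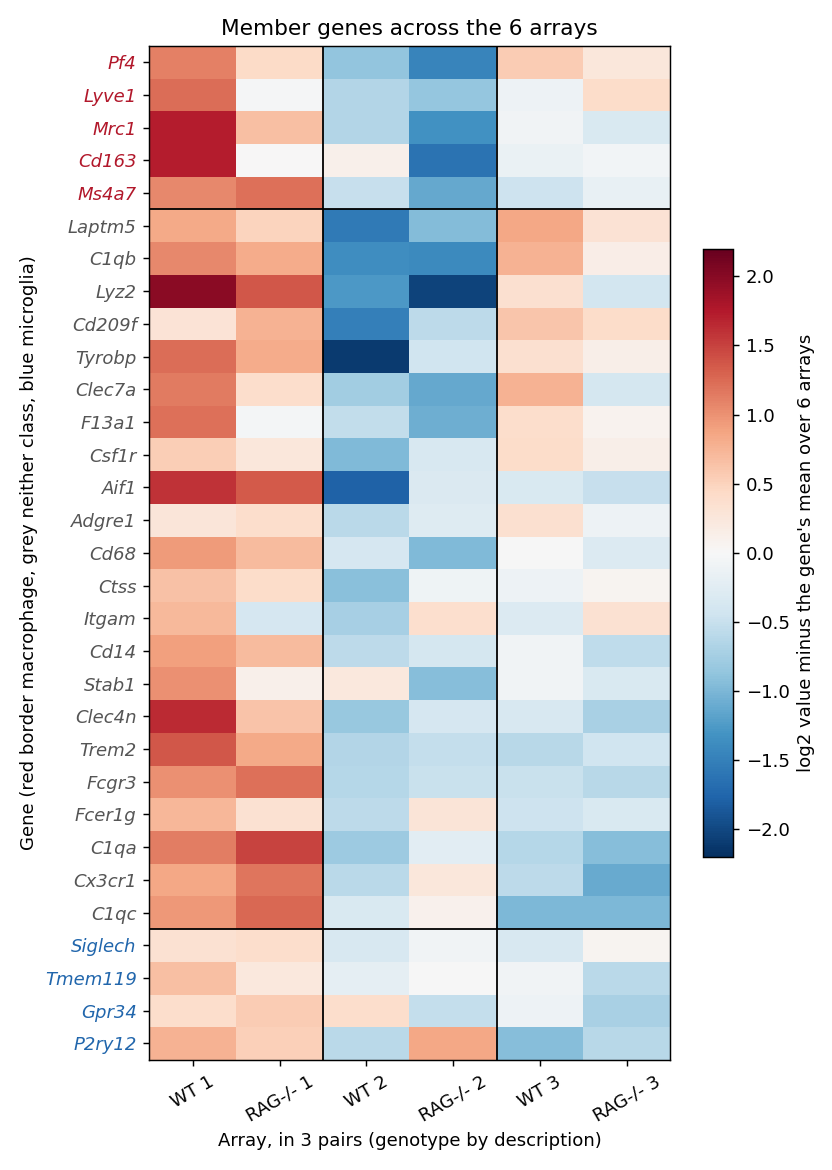
Log2 value of each of the 31 genes (rows) in the 6 arrays (columns, in pairs), as the deviation from that gene's mean over the arrays, with border macrophage genes in red at the top, microglia genes in blue at the bottom and the others in grey, ordered within each block by pair 3 minus pair 2. The columns of pair 1 are mostly red throughout, pair 2 is blue for most border genes, and pair 3 is near or above the mean for Pf4 and Lyve1 and blue for C1qa, C1qc and Cx3cr1.

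At its brightest probe set, each of the 5 border macrophage genes was highest in an array of pair 1 and lowest in RAG-/- replicate 2. That array was the lowest of the 6 in 11 of the 28 tested members, against 31.1% of genes. The dimmer set of Lyve1 was lowest in WT replicate 2, at 6.03, and was at 7.08 in RAG-/- replicate 2. Mrc1, the mannose receptor, was at 10.04 in WT replicate 1 and 8.99 in RAG-/- replicate 1, at 7.68 and 6.99 in the WT and RAG-/- arrays of pair 2, and at 8.24 and 7.98 in those of pair 3. The RAG-/- array was the lower one in each pair, yet the groups overlapped, since RAG-/- replicate 1 lay above WT replicates 2 and 3. The group difference was -0.67 (8.65 ± 1.23 in WT and 7.98 ± 1.0 in RAG-/-, SD, n = 3; limma SE 0.69, adjusted p = 1). The deposited Mrc1 intensity was 1050 in WT replicate 1 and 122 in RAG-/- replicate 2.

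Cd163, the scavenger receptor for haemoglobin bound to haptoglobin, had the largest group difference of the 28 tested members. Its log2 values were 8.81 and 7.09 in pair 1, 7.19 and 5.46 in pair 2, and 6.93 and 7.02 in pair 3, WT first. RAG-/- minus WT was -1.72 and -1.73 in pairs 1 and 2 and 0.09 in pair 3. The mean difference of -1.12 (SE 0.62), 2.18-fold lower, did not pass the test (limma adjusted p = 1). On that scale 42 of 13537 genes had a more negative difference.

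Pf4, a chemokine of platelets and border macrophages, was at 10.51 and 9.83, 8.54 and 7.95, and 9.97 and 9.65 in the WT and RAG-/- arrays of pairs 1, 2 and 3. Pair 3 lay close to pair 1, and pair 2 below both. Lyve1, a hyaluronan receptor of lymphatic endothelium and of a subset of border macrophages, was at 8.29 and 7.03, 6.41 and 6.20, and 6.95 and 7.47. Ms4a7, a membrane protein of border macrophages, was at 8.02 and 8.17, 6.45 and 5.84, and 6.50 and 6.80. Of these 5 genes, 4 were lower in the RAG-/- array of pair 1, 5 in pair 2 and 2 in pair 3. The group differences were -0.53 for Pf4, -0.32 for Lyve1 and -0.06 for Ms4a7, and the groups overlapped for each.

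Other genes commonly found in border macrophages did not all follow the same course. Stab1, a scavenger receptor, was at 8.57 and 7.69, 7.81 and 6.63, and 7.49 and 7.23, a group difference of -0.77 (SE 0.41; limma adjusted p = 1). F13a1, the transglutaminase subunit of coagulation factor XIII, was at 9.24 and 7.99, 7.50 and 6.96, and 8.42 and 8.11. Both were lower in the RAG-/- array of every pair. Cd209f, a lectin of border macrophages, was at 6.69 and 7.16, 4.88 and 5.82, and 7.01 and 6.79, and so was higher in RAG-/- in pairs 1 and 2. For Cd209f pairs 1 and 3 were nearly level, 0.02 apart, and pair 2 was lower than pair 3 by 1.55.

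Microglia genes varied less, with a median range of 1.27 over the arrays against 2.57 for the border genes, at probe sets between the 39.2 and 66.1 percentiles of brightness against 55.0 and 80.4. The part of brightness in that was not tested. P2ry12, the ADP receptor that steers microglial processes, was at 7.27 and 7.02 in pair 1, 5.90 and 7.34 in pair 2, and 5.56 and 5.89 in pair 3. RAG-/- replicate 2, in which Mrc1, Cd163, Lyve1, Pf4 and Ms4a7 were each lowest at the brightest set, had the highest P2ry12. Tmem119 was at 8.6 and 8.18, 7.75 and 7.93, and 7.86 and 7.35. Pair 1 was highest and the lowest value was that of RAG-/- replicate 3.

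Gpr34, a receptor for lysophosphatidylserine, was at 6.47 and 6.64, 6.47 and 5.55, and 5.97 and 5.36. It went opposite to P2ry12 within pair 2, by -0.92 against 1.44. Siglech, a sialic acid binding receptor of microglia and plasmacytoid dendritic cells, was at 6.36 and 6.41, 5.67 and 5.94, and 5.67 and 6.08, a range of 0.74 only. The group differences were 0.51 for P2ry12, -0.25 for Tmem119, -0.45 for Gpr34 and 0.24 for Siglech, and none of the 3 tested passed (limma adjusted p = 1 each). Siglech lay below the filter, and its exact permutation p was 0.5, two-sided, where 0.1 is the smallest that 3 against 3 arrays allow. The microglia genes thus gave no common direction, 2 lower and 2 higher.

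The contrast of the classes differed both between and within pairs. The mean of the 5 border genes was 9.14 and 8.22 in pair 1, 7.25 and 6.49 in pair 2, and 7.72 and 7.78 in pair 3, WT first. The mean of the 4 microglia genes was 7.18 and 7.06, 6.45 and 6.69, and 6.27 and 6.17. All 5 border genes were higher in pair 3 than in pair 2, whereas 3 of the 4 microglia genes were lower, Siglech being the exception at 0.07 higher. Of the 22 members in neither class, 18 were also higher in pair 3 than in pair 2, so the border genes were not alone in this. Over all genes past the filter, 45.7% were lower in pair 3 than in pair 2. The difference between the class means, whose zero is arbitrary, was 1.56 in pair 1, 0.30 in pair 2 and 1.53 in pair 3. Its lowest value was -0.20 in RAG-/- replicate 2, and the other 5 arrays lay between 0.81 and 1.96. Within pairs 1, 2 and 3 it differed by -0.80, -1.01 and 0.16, RAG-/- minus WT.

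Within pairs the border mean differed by -0.91, -0.77 and 0.07, RAG-/- minus WT, and the microglia mean by -0.11, 0.24 and -0.10. The border mean was 8.04 ± 0.98 in WT and 7.50 ± 0.90 in RAG-/- (SD, n = 3), a difference of -0.54 that is smaller than either spread. Without RAG-/- replicate 2 it was -0.03, and without WT replicate 1 it was 0.01. By title the difference was 0.07. The microglia mean was 6.63 ± 0.48 in WT and 6.64 ± 0.45 in RAG-/-. The difference of the class means was -0.55 by description, -0.02 by title, -0.02 without RAG-/- replicate 2 and -0.27 without WT replicate 1.

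Markers of other tissue moved between the same arrays. RAG-/- replicate 2 had the highest mean of 10 neuron genes, 11.99 against 8.85 to 10.80 in the other arrays, and of 8 astrocyte genes, 12.32 against 10.89 to 11.98. It had the lowest mean of 10 fibroblast genes, 9.15 against 10.14 to 11.44, and of the 12 epithelial genes, 12.84 against 13.64 to 13.86. Fibroblast genes were lower in the RAG-/- array of pairs 1, 2 and 3 by differences of -1.21, -1.31 and -0.63, beside the border differences above. By description 10 of 10 fibroblast genes were lower, with a median of -1.05 (limma called 0, and 4 had an unadjusted p under 0.05). By title 8 of 10 were lower, with a median of -0.37. Oligodendrocyte genes, which encode proteins of myelin and of the cells that make it, had a mean of 10.67 and 10.19 in pair 1, 10.46 and 11.82 in pair 2, and 9.82 and 11.75 in pair 3, WT first. Their RAG-/- arrays were thus the lower in pair 1 and the higher in pairs 2 and 3, by -0.48, 1.36 and 1.93. Of 9 such genes, 9 were higher by description (median 1.08) and 9 by title (median 1.24). By description limma called 0 of the 9, and 3 had an unadjusted p under 0.05, against 0.711% of all probe sets. WT replicate 1, the array with the highest border mean, had the highest fibroblast mean (11.44) and the highest endothelial mean (8.88). The part of tissue composition in the macrophage values was not tested.

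**Figure D2:**
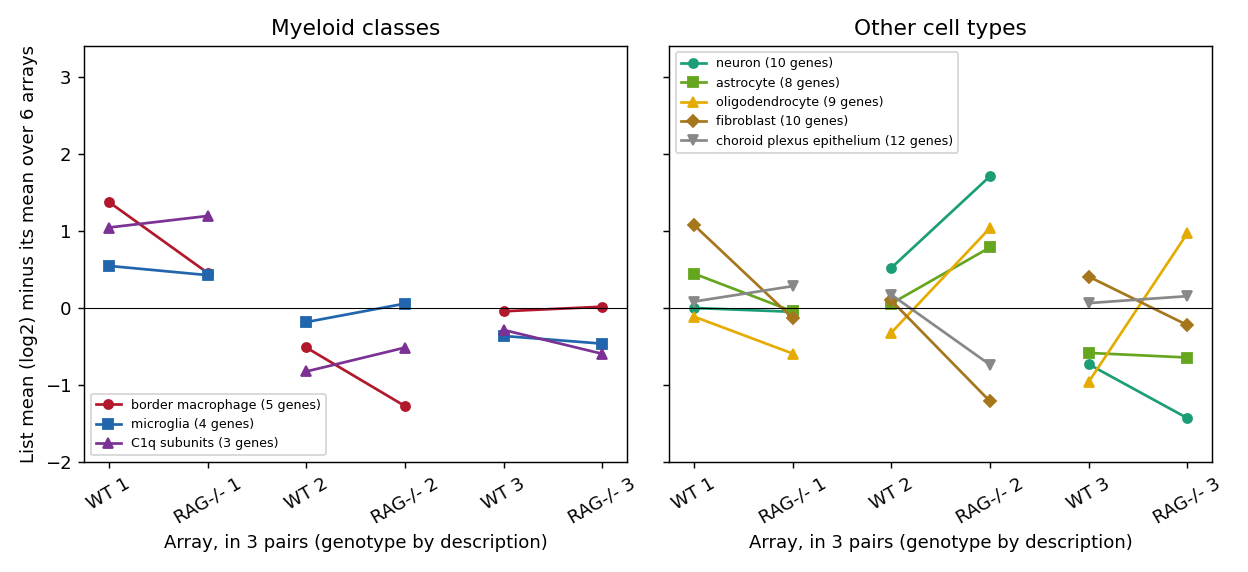
Mean log2 value of each gene list in each array minus the list's mean over the 6 arrays, with a line joining the WT and RAG-/- arrays of a pair. On the left the border genes are lowest in RAG-/- replicate 2 (mean 6.49), where the microglia genes (6.69) are above their WT partner (6.45). On the right the neuron mean is highest (11.99) and the fibroblast mean lowest (9.15) in that same array, and the oligodendrocyte mean is high in RAG-/- replicates 2 (11.82) and 3 (11.75).

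The 3 subunits of C1q, the recognition protein of the classical complement pathway, are encoded by neighbouring genes on chromosome 4. C1qa was at 9.50 and 9.86, 7.57 and 8.14, and 7.74 and 7.43 in the WT and RAG-/- arrays of pairs 1, 2 and 3. C1qc was at 9.47 and 9.78, 8.19 and 8.61, and 7.54 and 7.53. Both were higher in pair 1 than in either other pair by 1.22 to 2.10. C1qb at its brightest probe set was at 10.19 and 9.96, 7.77 and 7.74, and 9.90 and 9.28, so that its pair 3 lay near pair 1. Group differences of the subunits were 0.20, -0.29 and 0.24 for C1qa, C1qb and C1qc, against WT spreads of 1.07, 1.32 and 0.98 (SD, n = 3).

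Receptors and adapters that both classes share also had pair 1 on top at their brightest probe sets. Csf1r, the receptor for CSF1 and IL-34 on which these cells depend, was at 12.71 and 12.41, 11.20 and 11.82, and 12.57 and 12.30. Pairs 1 and 3 were 0.13 apart. Cx3cr1 was at 9.0 and 9.33, 7.56 and 8.40, and 7.58 and 7.05, and its pair 3 was 1.85 below pair 1. Thus both receptors placed pair 3 differently, Csf1r as Pf4 did and Cx3cr1 as C1qa and C1qc did.

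Tyrobp, the adapter also called DAP12 that passes on signals from TREM2 and related receptors, was at 9.75 and 9.34, 6.42 and 8.09, and 8.88 and 8.66. WT replicate 2 was the lowest array, and its partner lay 1.67 above it. Aif1, the calcium-binding protein IBA1, was at 7.73 and 7.50, 4.37 and 5.83, and 5.81 and 5.64, again lowest in WT replicate 2. Fcer1g, the common gamma chain of Fc receptors, was at 8.47 and 8.08, 7.17 and 8.03, and 7.29 and 7.41. Within pair 2, the RAG-/- array was the higher one for 19 of the 31 genes, among them Tyrobp, Aif1, P2ry12, Itgam, Cd209f, Fcer1g, Cx3cr1 and Ctss. It was the lower one for the other 12, among them Cd163, Stab1, Gpr34, Lyz2, Mrc1 and Ms4a7. Of the 28 tested members, 12 were lower in that array than in WT replicate 2, against 52.5% of genes. The RAG-/- array was the lower one for 20 of the 28 in pair 1, against 46.9% of genes, and for 22 of the 28 in pair 3, against 53.4%.

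Further pattern and Fc receptors included Fcgr3, a low-affinity IgG receptor, at 8.80 and 9.0, 7.16 and 7.29, and 7.29 and 7.18. Pairs 2 and 3 were level for it, at 7.22 and 7.23, and pair 1 was at 8.90. Cd14, the co-receptor for lipopolysaccharide, was at 8.85 and 8.64, 7.37 and 7.55, and 7.87 and 7.39. Clec7a, the beta-glucan receptor dectin-1, was at 9.05 and 8.29, 7.14 and 6.79, and 8.68 and 7.52, and was the lower in RAG-/- in every pair, with a group difference of -0.76. Clec4n, the receptor dectin-2, was at 7.96 and 6.95, 5.50 and 5.96, and 5.97 and 5.62. Trem2, the lipid receptor that signals through TYROBP, lay below the filter at 6.90 and 6.36, 4.89 and 5.01, and 4.93 and 5.10, with pair 1 highest at this probe set. Its other probe set, dimmer still, had pair 1 lowest, at 4.34 and 4.63, 6.02 and 5.70, and 5.82 and 4.54.

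Among lysosomal and phagocyte genes, Lyz2 had the widest range of all members, 4.02. This lysozyme of myeloid cells including neutrophils was at 11.72 and 11.11 in pair 1, 8.47 and 7.71 in pair 2, and 10.10 and 9.34 in pair 3. The pairs were fully separated, 3.33 between pairs 1 and 2, while within pairs RAG-/- was lower by similar amounts, -0.61, -0.76 and -0.76. Its group difference of -0.71 was below the WT spread of 1.63 (SD, n = 3). Cd68, a lysosomal glycoprotein, was at 8.08 and 7.84, 6.78 and 6.18, and 7.13 and 6.85, also lower in RAG-/- within each pair. Ctss, the cysteine protease cathepsin S, was at 12.48 and 12.24, 10.92 and 11.74, and 11.72 and 11.90. Laptm5, a lysosomal membrane protein of haematopoietic cells, was at 10.46 and 10.11, 8.06 and 8.67, and 10.47 and 9.94 at its brightest probe set.

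Adgre1, which encodes the macrophage antigen F4/80, had the smallest range of the 28 tested members. It was at 9.05 and 9.18, 8.20 and 8.50, and 9.14 and 8.67, a range of 0.98. Itgam, the integrin chain CD11b, lay at the 17.2 percentile of probe sets, at 5.80 and 4.71, 4.35 and 5.45, and 4.79 and 5.42. Its 3 arrays titled RAG (5.80, 5.45 and 5.42) all lay above the others, a difference of 0.94 by title (exact permutation p = 0.1, two-sided, the smallest possible). By description it differed by 0.21 and the groups overlapped (exact permutation p = 0.8, two-sided).

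Between the genotypes by description, 0 of the 28 tested members passed limma at adjusted p under 0.05, and 0 had an unadjusted p under 0.05. Of all 27023 probe sets, 0% and 0.711% did so. The differences ran from -1.12 for Cd163 to 0.51 for P2ry12, with a median of -0.13 beside -0.01 over all genes past the filter, where 5% of genes lay below -0.50 and 5% above 0.53. Of the 28, 17 were lower in RAG-/-, where 51.1% of all genes were. In 0 of the 28 did the groups fail to overlap, against 3.1% of genes. By title, limma called 0 of 28 as well, with 0 at an unadjusted p under 0.05 against 1.23% of probe sets. The median difference was then 0.03, 13 of 28 were lower against 53.9% of genes, and the groups did not overlap in 0 of 28 against 4.73%.

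Holding the pair fixed gave more small p-values but no call. With the pair as a block, limma called 0 of 28 members by description (0% of probe sets), and 6 of 28 had an unadjusted p under 0.05, where 2.35% of probe sets did. These were Mrc1, Cd163, Clec7a, Lyz2, Stab1 and F13a1, each with an adjusted p of 1 and each lower in RAG-/-. Of the 28, 8 were lower in the RAG-/- array of all 3 pairs (Cd68, Mrc1, C1qb, Pf4, Clec7a, Lyz2, Stab1 and F13a1), where 11.3% of genes were, and 0 were higher in all 3, where 9.75% were. The set held receptors (Mrc1, Stab1 and Clec7a), lysosomal proteins (Lyz2 and Cd68) and Pf4, F13a1 and C1qb. The border genes Cd163, Lyve1 and Ms4a7 were not in it, nor were the microglia genes P2ry12, Tmem119 and Gpr34. Each class has too few genes to compare such counts. C1qb was in the set through its brightest probe set only, which was lower by -0.04 in pair 2. By title pair 1 turns around, and in the blocked fit 0 of 28 members were called (0.0037% of probe sets) and 0 had an unadjusted p under 0.05, against 4.14% of probe sets. Read by the titles, these 8 genes were higher in the array titled RAG of pair 1 and lower in those of pairs 2 and 3.

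**Figure D3:**
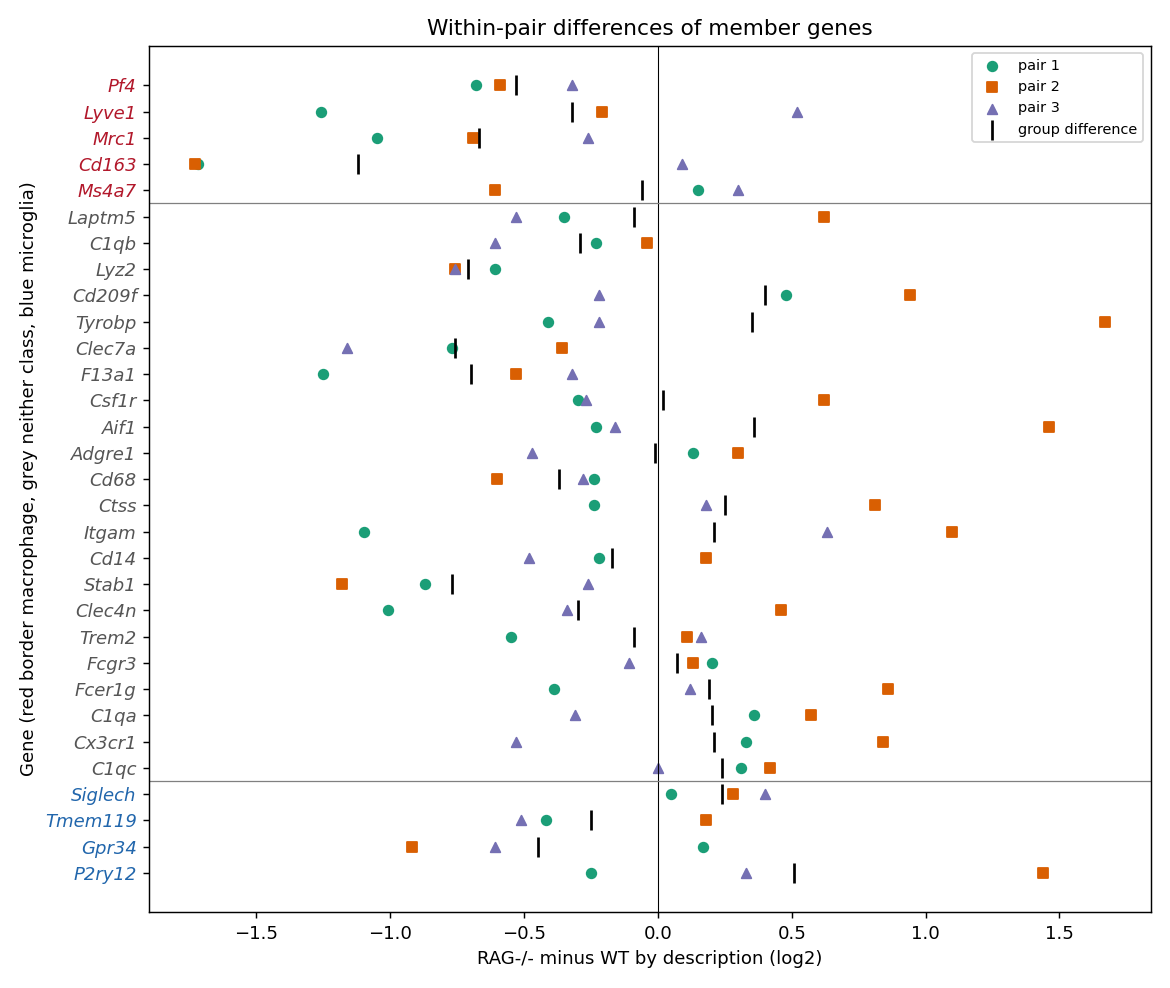
RAG-/- minus WT by description on the log2 scale, for each gene in pair 1 (circles), pair 2 (squares) and pair 3 (triangles), with a bar at the group difference. Mrc1, Pf4, Lyz2, Clec7a, F13a1, Stab1, Cd68 and C1qb have all 3 points left of 0, while Tyrobp, Aif1 and P2ry12 have a pair 2 point at 1.44 to 1.67 to the right.

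The 2 readings agreed in sign for some genes and not for others. P2ry12 differed by 0.51 by description and 0.67 by title, and Gpr34 by -0.45 and -0.57. Stab1, Clec7a and Lyz2 kept a negative sign with smaller sizes by title, at -0.19, -0.25 and -0.30. Cd163 went from -1.12 to 0.03, Mrc1 from -0.67 to 0.03, F13a1 from -0.70 to 0.13 and Lyve1 from -0.32 to 0.53. The readings differ in pair 1 alone, where RAG-/- minus WT by description was -1.72 for Cd163, -1.26 for Lyve1, -1.25 for F13a1, -1.05 for Mrc1 and 0.15 for Ms4a7.

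**Figure D4:**
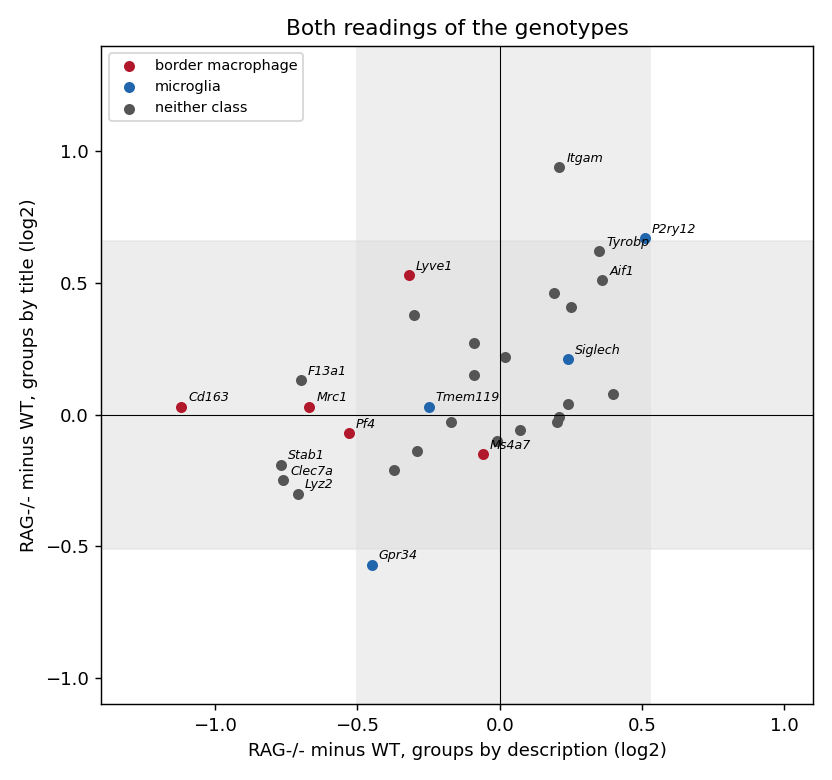
Difference RAG-/- minus WT in log2 units with the groups taken from the descriptions (horizontal axis) and from the titles (vertical axis), 1 point per gene, with grey bands for the middle 90% of all genes past the filter. Cd163 lies farthest left (-1.12) but at 0.03 on the vertical axis, and P2ry12 is positive on both.

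Lists of other genes of these cells were read beside the members, and limma called 0 genes in either direction in each of them. Of 12 tested further border macrophage genes, which include the members Stab1, F13a1, Cd209f and Clec4n, 10 were lower by description, with a median of -0.38. Beside this and the lists below, 51.1% of all genes past the filter were lower by description and 53.9% by title. Colec12, a scavenger receptor, differed by -0.75. Of 11 further microglia genes 7 were higher, with a median of 0.31. Sall1, a transcription factor of microglia, differed by 0.52 and Slc2a5, a fructose transporter, by 0.41, and both were higher in the RAG-/- array of every pair. By title 7 of the 12 border genes were lower and 9 of the 11 microglia genes higher, with medians of -0.04 and 0.14. The oligodendrocyte genes, also higher under both readings, had medians of 1.08 by description and 1.24 by title, and the part of brain tissue in the microglia values was not tested.

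Genes of macrophage growth and signalling had 19 of 30 tested members lower and a median of -0.08, and the smallest p-values were those of the TGF-beta receptors Tgfbr2 (-0.48) and Tgfbr1 (-0.40). By title 13 of the 30 were lower and the median was 0.08, with Tgfbr2 at -0.36 and Tgfbr1 at -0.02. Of 6 tested genes of the complement C1 complex and its receptors, which include the C1q members, 3 were lower, with a median of -0.12 by description and 0.00 by title. Spi1, which encodes the myeloid transcription factor PU.1, was at 7.58 and 7.05, 6.74 and 6.62, and 7.39 and 7.35. It was highest in WT replicate 1 and lowest in pair 2 like Mrc1. Unlike Mrc1, it had its highest pair mean in pair 3, at 7.37 against 7.31 in pair 1. Ptprc, the pan-leukocyte antigen CD45, was at 9.67 and 9.11, 7.62 and 7.30, and 8.57 and 8.05, with pair 3 between the other pairs. Both were chosen after their values were seen. Markers of monocytes, neutrophils and dendritic cells had 11 of 13 lower, with a median of -0.48. Their mean was highest in WT replicate 1, at 8.6, and lowest in RAG-/- replicate 2, at 6.64, the same extremes as the border mean. Camp, a neutrophil peptide, differed by -1.59 (SE 1.30) and Flt3, a receptor of dendritic cells and progenitors, by -0.96 (SE 0.63). By title 5 of the 13 were lower and the median was 0.24, with Camp at -0.27 and Flt3 at 0.30. Some members, Lyz2 and Cd14 among them, are also expressed by monocytes or neutrophils, whose part in their values was not tested.

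Across the 6 arrays the 5 border genes had higher correlations with each other than the microglia genes had. The median Pearson r between genes was 0.86 over the 10 gene pairs within the border class, 0.61 over the 6 within the microglia class and 0.47 over the 20 between classes. Over the 378 pairs of tested members the median was 0.70, and over all pairs of genes past the filter 0.00. With the members of neither class it was 0.71 for border genes and 0.58 for microglia genes. The microglia sets were dimmer and ranged less, and the part of that in their lower r was not tested. Arrays of a pair resemble each other, so these 6 points are not independent, and the values are descriptions with no test. Without WT replicate 1 the medians within the border class, within the microglia class and between them were 0.68, 0.45 and 0.15.

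Promoters of the members were examined for the core letters bound by PU.1, because PU.1 is known to act at many macrophage genes. RefSeq promoters of build GRCm38.p6, from 250 bases before to 50 after the gene start, were given for 22 of the 31 genes. GAGGAA, on either strand, was present in 16 of these 22, or 72.7%, and in 31.3% of 27025 genes. The longer GAGGAAGT, which contains it, was present in 4 of 22, or 18.2%, and in 3.69% of genes. In the 250 bases before the start alone, the shares for GAGGAA were 63.6% and 25.9%. Such a match is a description of the letters and not of binding. In that shorter window GAGGAA was present in 2 of 4 border promoters, those of Mrc1 and Pf4 but not of Cd163 and Ms4a7, and in 0 of 2 microglia promoters, those of P2ry12 and Siglech. With the 50 bases after the start included it was in 3 of 4 and 1 of 2, Ms4a7 and Siglech being added. The promoters below show where the matches lie, and Mrc1, Pf4 and C1qc were chosen among those that have one and P2ry12 among those that have none. Each is the 250 bases before the start, read in the direction of the gene, with GAGGAA or its reverse complement TTCCTC in capitals. Mrc1 (chr2:14229164-14229413, plus strand) has 3 matches, starting 180, 167 and 35 bases before the gene start. Pf4 (chr5:90772185-90772434, plus strand) has 1, starting 8 bases before it, and C1qc (chr4:136892915-136893164, minus strand) has 1, starting 193 bases before it. P2ry12 (chr3:59262986-59263235, minus strand) has 0 in this window.
Mrc1: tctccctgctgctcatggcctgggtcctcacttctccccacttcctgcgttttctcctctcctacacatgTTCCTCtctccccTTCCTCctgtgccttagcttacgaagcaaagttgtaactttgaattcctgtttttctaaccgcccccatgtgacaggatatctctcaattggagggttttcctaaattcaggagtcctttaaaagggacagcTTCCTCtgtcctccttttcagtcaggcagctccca
Pf4: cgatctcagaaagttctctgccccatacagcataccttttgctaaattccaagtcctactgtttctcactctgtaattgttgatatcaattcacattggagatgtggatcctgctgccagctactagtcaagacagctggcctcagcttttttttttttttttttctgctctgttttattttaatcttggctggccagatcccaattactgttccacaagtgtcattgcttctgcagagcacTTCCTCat
C1qc: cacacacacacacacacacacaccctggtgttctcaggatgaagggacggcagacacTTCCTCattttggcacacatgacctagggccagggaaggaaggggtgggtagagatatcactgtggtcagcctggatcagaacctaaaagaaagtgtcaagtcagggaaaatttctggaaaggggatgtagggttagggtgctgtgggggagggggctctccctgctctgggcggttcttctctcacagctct
P2ry12: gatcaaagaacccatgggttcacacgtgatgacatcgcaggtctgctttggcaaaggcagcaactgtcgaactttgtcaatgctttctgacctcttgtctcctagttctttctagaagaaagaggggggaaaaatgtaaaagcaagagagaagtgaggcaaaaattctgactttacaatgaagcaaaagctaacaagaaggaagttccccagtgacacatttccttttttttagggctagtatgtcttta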

How the data were processed

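The authors deposited linear intensities of 45101 probe sets, 64 of them controls. The software and normalization were not given in the sources used here. Each array had a mean of 500 once the lowest and highest 2% of its values were dropped. Intensities were taken as log2(intensity + 16), which understates changes of dim probe sets, and quantile normalized. The lowest 40% of probe sets by mean were left out, which left 27023. Of probe sets other than controls, 34945 had 1 symbol, 932 several and 9160 none. The brightest probe set stood for a gene. Differences were tested two-sided with limma 3.58.1 (lmFit, and eBayes with a trend) in R 4.3.3, Benjamini-Hochberg adjusted over all probe sets tested, at 0.05. The number of arrays limits the precision. The fit was tested on simulated data without pairs and with a smaller spread than these arrays, which does not measure its power here.

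Within the 3 pairs the arrays' deviations from their group means had correlations of 0.29, 0.39 and 0.58, so the title codes were taken as a pairing. Members and lists were chosen with earlier results of these data known. Genes named are all 31 members, Rag1 and Rag2, the 2 genes with the smallest p of lists described, and fixed tissue markers. The alternatives were the groups by title, other scalings, pseudocounts, filters, probe sets and weights, the block, and arrays or pairs left out.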

Additional observations from a re-analysis of the deposited data

How the results depend on the processing

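Counts of members called by limma stayed at 0 under every alternative run, by description and by title, including the pair as replicate block (0). Over all probe sets the share called was at most 0.0148% in any of these runs, so the count says little about the members in particular. By description the border mean of -0.54 lay between -0.60 and -0.43 under other scalings, pseudocounts and probe set rules, at 0.07 by title, and between -0.93 and 0.01 without single arrays or pairs. The microglia mean of 0.01 lay between -0.20 and 0.28, and their difference of -0.55 between -0.93 and -0.02. Tested members whose groups did not overlap numbered 0 over all arrays, which leaves out Itgam, below the filter and separated by title. With an array or pair left out they numbered 0 to 5, where fewer arrays make separation easier (8.81% to 22.9% of genes in the settings with 1 or more). With an array left out, the median r was 0.68 to 0.91 within border genes, 0.45 to 0.69 within microglia genes and 0.15 to 0.65 between them. Members with pair 1 on top numbered 12 to 23, the lowest where 19 were tested, against 8.24% to 19.9% of genes. Those with pair 2 lowest numbered 10 to 20, against 14.8% to 35.8% of genes. The largest of these shares, without WT replicate 2, stood beside 16 of 28 members. These last counts, the correlations and their alternatives were added after the data had been seen. Of 465 values of single members under alternatives, 459 moved by less than 1 SD, and 76 had the other sign. The 6 that moved further were those of Cd163, Lyve1, Stab1, F13a1 and Itgam by title, and of Itgam without pair 1. The measure is a loose one, since Mrc1, at -0.67 by description and 0.03 by title, counted as moved by less than 1 SD. Dim probe sets, such as those of Itgam, Trem2 and Siglech, were limited by signal over background.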

Other observations

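Probe sets of the same gene did not always place the pairs alike. Of the 31 genes, 8 had more than 1 probe set. Of the 13 sets other than the brightest, 6 had the highest pair mean in pair 1 and 7 did not. For C1qb the brightest 2 sets had pair 3 at 9.90 and 9.28, and at 9.62 and 9.07, WT first. The third set had it at 7.85 and 7.28, below pair 2 (8.30 and 8.34), as C1qa and C1qc did. The sets of C1qb had similar within-pair differences, from -0.23 to -0.01 in pair 1 and from -0.61 to -0.55 in pair 3. In pair 2 these were -0.04, 0.01 and 0.05, brightest set first, so only the brightest was lower in RAG-/- in every pair.

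For Laptm5 the brightest set had pair 2 lowest (8.06 and 8.67), while the next brightest had pair 1 lowest (6.66 and 7.22) and WT replicate 3 highest (9.44). The group differences over its 5 sets ran from -1.17 to 0.12. For Lyve1 both sets were lower in RAG-/- in pair 1, by -1.26 and -1.27, and disagreed in sign in pair 2 (-0.21 and 1.05) and in pair 3 (0.52 and -0.64). For Trem2, whose sets both lay below the filter, the brighter had pair 1 highest (6.90 and 6.36) and the other had it lowest (4.34 and 4.63). All 3 sets of Csf1r had WT replicate 2 lowest.

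The ligands of CSF1R, chosen here after their values were seen, placed the pairs in other orders than the brightest probe set of the receptor. The other Csf1r sets had pair 3 highest and pair 2 lowest, which is also the order of the ligand Csf1. In these sets pair 1 minus pair 3 was only -0.03 and -0.04. Il34 was at 7.78 and 6.88 in pair 1, 6.59 and 6.12 in pair 2, and 4.70 and 4.29 in pair 3, lower in the RAG-/- array of each pair, near the filter on dim probe sets (40.1 percentile). Csf1, the other ligand, was at 8.33 and 8.35, 8.09 and 8.09, and 8.97 and 8.74. Pair 3, in which the brightest set of Csf1r lay 0.13 below pair 1, thus had the lowest Il34 and the highest Csf1. The cause was not tested.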
